A study of Homo sapiens with 30 samples.

Results

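The chemokines of gut epithelium followed here are CXCL8, CCL20, CXCL1, CXCL2, CXCL3, CXCL5 and CXCL10. They were found as all probe sets whose platform gene symbol is exactly one of these names, which gave 10 probe sets for the 7 genes out of 22215 probe sets tested. CXCL8 has 2 probe sets, told apart by their suffixes x_at and s_at, CXCL5 has 3 (at, x_at and s_at) and each of the other genes has 1. The suffixes x_at and s_at mark probes that may also match other transcripts. The cells were a co-culture of Caco-2, a human colorectal carcinoma line that takes on features of absorptive enterocytes after confluence, and HT29-MTX, a mucus-secreting colon carcinoma line selected with methotrexate. They were mixed at 75% Caco-2 and 25% HT29-MTX and grown on Transwell inserts for 14 days. Multi-walled carbon nanotubes (MWCNT) or titanium dioxide nanobelts (TiO2-NB) were then added on the apical side at 10 or 100 µg/ml and left for 1 or 24 h. At each time, control wells got fresh medium in both compartments, and a particle-free suspension is not among the groups. Each of the 10 groups has 3 arrays, called biological replicates in the labels. Flasks of each line were pooled before plating and each line was taken at more than 1 passage, with no label saying which array came from which passage, so the p-values measure the spread between these wells. No leukocyte was added to the culture, so the measurements are of chemokine messages in the epithelial lines, not of recruited cells or secreted protein.

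Chemokines are small secreted proteins that bind receptors on leukocytes and guide them along a gradient. CXCL8 (interleukin-8), CXCL1, CXCL2, CXCL3 and CXCL5 attract neutrophils through the receptors CXCR1 and CXCR2, CCL20 attracts CCR6-bearing dendritic cells and lymphocytes to the gut lining, and CXCL10 attracts CXCR3-bearing T cells and is induced by interferons. Epithelial cells make most of them through NF-κB, a transcription factor held in the cytoplasm by inhibitors until a signal such as interleukin-1, tumour necrosis factor or bacterial flagellin removes the inhibitor. Many of these messages carry AU-rich elements that bind decay proteins and shorten their life, so their levels can change within an hour.

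The stretch just before each gene's start is shown because binding sites for NF-κB in these stretches are well known. The 5 CXC chemokines that attract neutrophils lie near each other on chromosome 4. CXCL10 lies farther along that chromosome, and CCL20 lies on chromosome 2. Sequences are from RefSeq (GRCh38.p14), 100 bases ending at the base before the annotated start, written 5′ to 3′ on the gene's strand. Capitals mark each match to GGNNTTTCC, a form of the NF-κB site, on either strand. The stretches lie at chr4:73740469-73740568 (plus strand) for CXCL8, chr2:227813742-227813841 (plus) for CCL20, chr4:73869293-73869392 (plus) for CXCL1, chr4:74099196-74099295 (minus) for CXCL2, chr4:74038690-74038789 (minus) for CXCL3 and chr4:73998678-73998777 (minus) for CXCL5.
CXCL8: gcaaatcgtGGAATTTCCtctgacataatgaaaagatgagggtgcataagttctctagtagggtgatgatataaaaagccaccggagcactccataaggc
CCL20: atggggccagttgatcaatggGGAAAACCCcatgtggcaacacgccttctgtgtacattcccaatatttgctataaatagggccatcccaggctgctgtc
CXCL1: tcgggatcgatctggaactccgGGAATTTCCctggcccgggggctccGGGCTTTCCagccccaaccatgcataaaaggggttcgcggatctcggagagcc
CXCL2: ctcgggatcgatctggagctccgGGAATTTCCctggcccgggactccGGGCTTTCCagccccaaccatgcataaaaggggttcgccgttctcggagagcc
CXCL3: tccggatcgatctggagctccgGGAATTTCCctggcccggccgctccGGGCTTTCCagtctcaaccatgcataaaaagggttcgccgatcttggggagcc
CXCL5: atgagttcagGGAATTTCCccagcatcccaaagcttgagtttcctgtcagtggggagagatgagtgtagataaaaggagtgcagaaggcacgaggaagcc

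All 7 genes had an entry in the promoter table. Within 250 bases upstream, GGNNTTTCC was found on either strand in 7 of 7 genes, against 5.48% of the 35116 promoters in the table. CXCL1, CXCL2 and CXCL3 each held 2 matches, GGAATTTCC and GGGCTTTCC, the second of them 53 to 45 bases before the start in all 3 genes. In CXCL10 the match lay 176 to 168 bases before the start, outside the shorter stretch, and a match to GAAANNGAAA, a form of the interferon-stimulated response element, lay 221 to 212 bases before it. That element was in 1 of 7 genes against 3.02% of all promoters. CXCL8 was the member with TGANTCA, the AP-1 site (1 of 7, 6.57% of all promoters), and CXCL2 the member with TTGCNNAA, a form of the C/EBP site (1 of 7, 9.05%). TATAAA was found in CXCL8 and CCL20 (2 of 7, 10.7%). All motifs were searched on both strands, and no pair of the matches to different motifs overlapped. A match is a description of the letters and no evidence of binding.

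Levels are log2 RMA values, on which a difference of 1 is a 2-fold change. RMA makes the distributions of the arrays alike, so a change is relative to the other transcripts, and the array medians lay between 6.45 and 6.49. The lowest correlation between arrays of a group was 0.997. Of the enterocyte markers, 13 of 14 lay above the median probe set, and their mean lay between 11.14 and 11.20 in the 10 groups. Of 11 measured markers of mucus-secreting cells, 8 lay above it, with group means between 8.85 and 8.98, but the mucins MUC2 and MUC5B and SPINK4 did not. Among 16 measured leukocyte markers, 2 lay above it (CD14 and LYZ), with PTPRC, the common leukocyte antigen, among those below. Group means of the leukocyte list lay between 5.31 and 5.43, and those of the fibroblast and endothelial list, with 3 of 12 above the median probe set, between 5.54 and 5.70. The files hold no detection calls. The mean over 30 arrays was 2.40, 2.47 and 3.09 for the 3 CXCL5 probe sets, and between 0.365% and 6.30% of all probe sets had a lower mean. Brightness differs between probes, so levels are compared below only within a probe set.

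In medium alone, 5 of the 7 genes had a probe set that was lower at 24 h than at 1 h, and CXCL3 and CXCL10 did not. The CXCL8 x_at probe set read 6.71, 7.34 and 7.04 in the 1 h controls and 5.49, 5.44 and 5.71 in the 24 h controls. Every 24 h control lay below every 1 h control. The level fell by 1.48 ± 0.152 (± is the standard error from limma, n = 3 arrays per group), a 2.80-fold change with adjusted p = 1.22e-07. In RNA from the whole co-culture, fewer cells of a line and less message per cell cannot be told apart. The CXCL8 s_at probe set read 5.43, 6.10 and 5.96 at 1 h and 4.75, 4.67 and 4.64 at 24 h, and fell by 1.14 ± 0.130 (adjusted p = 6.5e-07). CCL20 read 8.83, 9.17 and 8.94 at 1 h and 7.93, 7.94 and 7.68 at 24 h. It fell by 1.13 ± 0.085, or 2.18-fold (adjusted p = 9.12e-10), again with no overlap. CXCL2, a close relative of CXCL1 and CXCL3, read 6.85, 6.94 and 7.20 and then 6.17, 6.44 and 6.26, and fell by 0.71 ± 0.128 (adjusted p = 0.000279).

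The other neutrophil attractants had smaller estimated changes over that time, and changes were not tested between genes. CXCL1 read 5.43, 5.94 and 6.01 in the 1 h controls and 5.01, 5.37 and 5.36 in the 24 h controls, and fell by 0.54 ± 0.12 (adjusted p = 0.00211, or 0.0783 in a fit on the 2 control groups alone). Its first 1 h control lay close to the upper 24 h controls, though above both. CXCL3 read 5.79, 5.61 and 5.92 at 1 h and 5.61, 5.56 and 5.44 at 24 h, a difference of -0.24 that did not pass (adjusted p = 0.0915). Of the CXCL5 probe sets, s_at fell by 0.29, close to the threshold (adjusted p = 0.048), a call lost in 5 of 6 fits with 1 control array left out. The other 5 calls held in each such fit. In all, 6 of 10 chemokine probe sets were called lower and none the other way, where 10.9% of all probe sets were called lower and 18.1% in either direction. The median change of the 10 was -0.42, and that of all probe sets 0.0056.

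**Figure D1:**
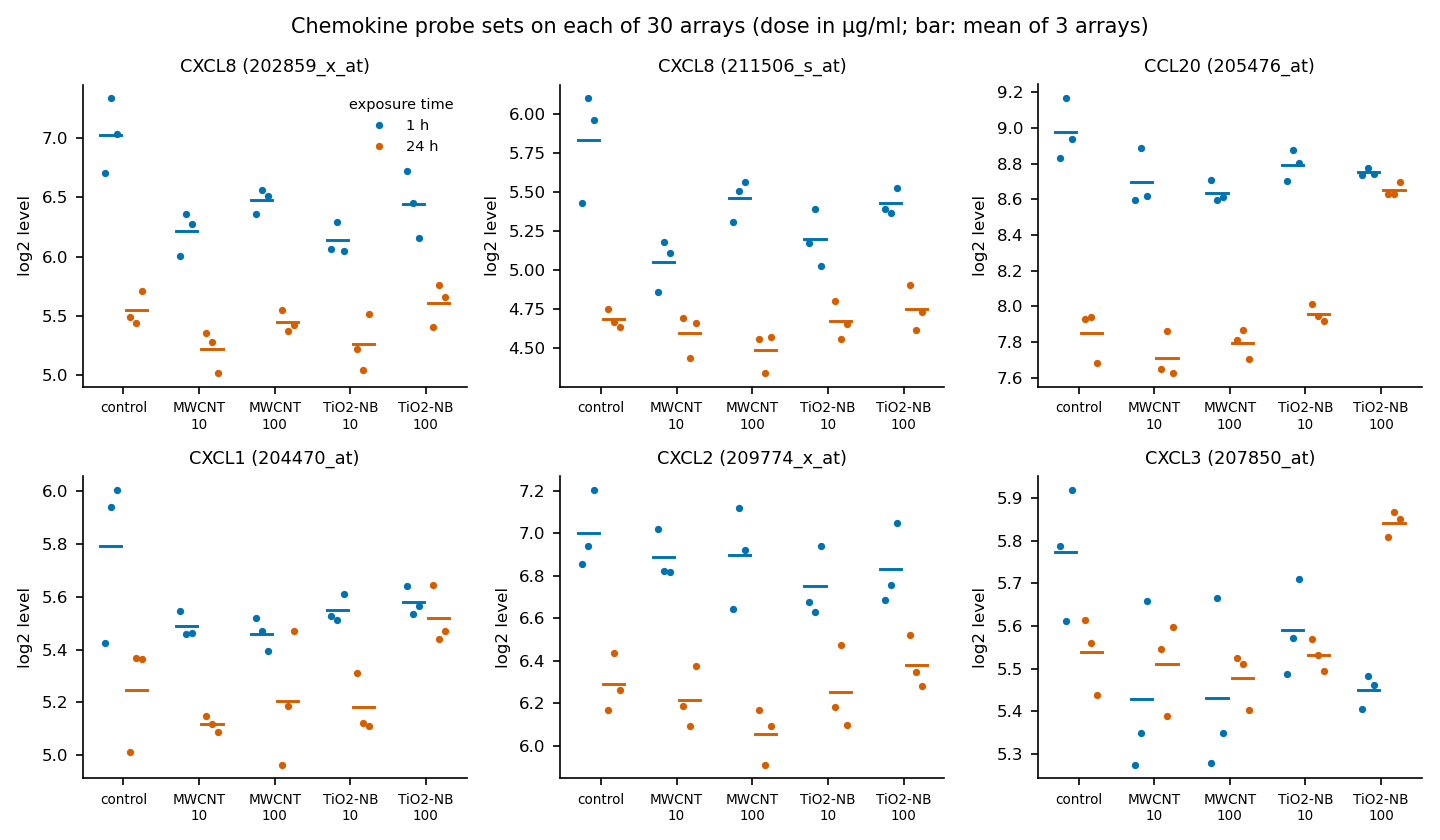
Log2 level (vertical axis) of the chemokine probe sets that moved, 1 panel each, in each group (horizontal axis), with a point per array and a bar at the group mean of 3 arrays. CXCL8 (x_at) is highest in the 1 h controls at a mean of 7.03, and CCL20 at 24 h stands at 8.65 with TiO2-NB at 100 µg/ml against 7.85 in control.

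After 1 h of exposure, CXCL8 was lower than in the 1 h control in all 4 exposed groups, and CCL20 and CXCL3 were lower in some of them. The CXCL8 x_at probe set then read 6.00, 6.36 and 6.28 with MWCNT at 10 µg/ml and 6.36, 6.56 and 6.51 at 100 µg/ml. With TiO2-NB it read 6.07, 6.29 and 6.05 at 10 µg/ml and 6.73, 6.46 and 6.16 at 100 µg/ml. Of the 12 exposed arrays, 11 lay below all 3 controls, and the exception was the first array of TiO2-NB at 100 µg/ml, at 6.73 against a lowest control of 6.71. CXCL8 fell by 0.81 (adjusted p = 0.00153) and by 0.55 (adjusted p = 0.0252) with the lower and higher MWCNT dose, and by 0.89 (adjusted p = 0.000444) and by 0.58 (adjusted p = 0.0162) with TiO2-NB, each ± 0.152. Over the 4 exposed groups pooled, it fell by 0.71 ± 0.120 (adjusted p = 0.000239). The controls are shared by these comparisons, so the 4 values are not independent.

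The CXCL8 s_at probe set gave the same direction with fewer calls. It read 4.86, 5.18 and 5.11 with MWCNT at 10 µg/ml and 5.17, 5.39 and 5.03 with TiO2-NB at 10 µg/ml, and all 6 of these arrays lay below the 3 controls. It fell by 0.78 ± 0.130 (adjusted p = 0.000505) and by 0.63 ± 0.130 (adjusted p = 0.00278) there. At 100 µg/ml its differences were -0.37 for MWCNT (adjusted p = 0.0829) and -0.40 for TiO2-NB (adjusted p = 0.0562), neither of which passed. The TiO2-NB difference did pass after a second quantile normalisation (adjusted p = 0.0451) and with an intensity trend and robust variances (adjusted p = 0.0352). Over the 4 groups it fell by 0.55 ± 0.103 (adjusted p = 0.000755).

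CCL20 read 8.59, 8.89 and 8.62 with MWCNT at 10 µg/ml and 8.71, 8.59 and 8.61 at 100 µg/ml for 1 h, against 8.83, 9.17 and 8.94 in control. The second array at 10 µg/ml lay above the lowest control, and the 3 arrays at 100 µg/ml lay below all of them. CCL20 fell by 0.28 ± 0.085 (adjusted p = 0.0496) and by 0.34 ± 0.085 (adjusted p = 0.0138). With TiO2-NB the differences of -0.18 and -0.23 did not pass (adjusted p = 0.211 and 0.108). CXCL3 read 5.28, 5.35 and 5.66 and 5.28, 5.67 and 5.35 with the lower and higher MWCNT dose, 5.49, 5.57 and 5.71 with TiO2-NB at 10 µg/ml, and 5.41, 5.48 and 5.46 at 100 µg/ml. It fell by 0.35 (adjusted p = 0.0284) and by 0.34 (adjusted p = 0.0265) with MWCNT and by 0.32 (adjusted p = 0.0336) with TiO2-NB at 100 µg/ml, each ± 0.095, while the difference of -0.18 with TiO2-NB at 10 µg/ml did not pass (adjusted p = 0.283). Over the 4 exposed groups CCL20 fell by 0.26 ± 0.067 (adjusted p = 0.012) and CXCL3 by 0.30 ± 0.075 (adjusted p = 0.00911).

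For CXCL1 and CXCL2 no 1 h comparison with control passed. CXCL1 lay between 5.39 and 5.64 on the 12 exposed arrays and spread from 5.43 to 6.01 in control, and its pooled difference was -0.27 ± 0.095 (95% interval -0.47 to -0.075, adjusted p = 0.0633). CXCL2 lay between 6.63 and 7.12 on the exposed arrays and between 6.85 and 7.20 in control, and its pooled difference was -0.16 ± 0.101 (95% interval -0.37 to 0.050, adjusted p = 0.355). CXCL1, CXCL2 and CXCL3 are close relatives, and the CXCL2 probe set carries the suffix x_at. Signal from a relative cannot be told apart from the named gene in that probe set.

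At 1 h, 4 of 10 chemokine probe sets were called lower with MWCNT at 10 µg/ml (3.9% of all probe sets were called lower), 3 with MWCNT at 100 µg/ml (4.27%), 2 with TiO2-NB at 10 µg/ml (5.24%), 2 with TiO2-NB at 100 µg/ml (5.78%) and 4 over the exposures pooled (7.6%). In either direction, 6.46%, 7.78%, 7.84%, 8.43% and 12.4% of all probe sets were called in those comparisons, and the chemokine calls were all in the lower direction. The median of the 10 was -0.24 in the pooled comparison, and that of all probe sets -0.0021. Fitted on the arrays of the compared groups alone, the same comparisons called 0, 0, 1 and 0 chemokine probe sets in the order above, where 0.378%, 0.504%, 0.986% and 1.21% of all probe sets were called, and 3 over the exposures pooled, where 7.78% were.

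Several of these calls were lost when 1 array was left out. Such a fit has fewer arrays, and in some of them the estimate was no smaller. A lost call therefore need not mean that the array left out carried it. Of the 11 calls in single exposed groups, 4 held whichever array was left out, and these were both CXCL8 probe sets at 10 µg/ml of either particle. For the pooled exposures both CXCL8 calls held. CCL20 lost its pooled call without the second control (log2 change -0.16, adjusted p = 0.192), CXCL3 lost it without the third (-0.23, adjusted p = 0.12), and CXCL1 gained one without the first (-0.45, adjusted p = 0.0018). CXCL1 also passed when the dimmest probe sets were filtered out (adjusted p = 0.0412) or variances followed an intensity trend (adjusted p = 0.0423). Without the first control, CXCL8 (s_at) gained calls with MWCNT and TiO2-NB at 100 µg/ml (-0.57, adjusted p = 0.0038, and -0.60, adjusted p = 0.00166). CCL20 gained one with TiO2-NB at 100 µg/ml (-0.30, adjusted p = 0.0417), and CXCL1 in each single exposed group. CXCL5 (x_at) was then called higher with TiO2-NB at 10 µg/ml (0.29, adjusted p = 0.0254) and pooled (0.24, adjusted p = 0.0223). With MWCNT at 100 µg/ml CXCL8 (x_at) lost its call without the second control (-0.40, adjusted p = 0.15), the third control (-0.55, adjusted p = 0.0628), the first exposed array (-0.49, adjusted p = 0.08) or the third exposed array (-0.57, adjusted p = 0.0583). With TiO2-NB at 100 µg/ml it lost it without the second control (-0.43, adjusted p = 0.115), the third control (-0.58, adjusted p = 0.0527) or the third exposed array (-0.44, adjusted p = 0.106). CCL20 with MWCNT at 10 µg/ml lost its call without the second control (-0.18, adjusted p = 0.284), the third control (-0.30, adjusted p = 0.0742), or the first or the third exposed array (-0.23, adjusted p = 0.224, and -0.24, adjusted p = 0.171). At 100 µg/ml it lost it without the second control (-0.24, adjusted p = 0.0988), or the second or the third exposed array (-0.32, adjusted p = 0.0546, and -0.33, adjusted p = 0.0521). The 3 CXCL3 calls (MWCNT at 10 and 100 and TiO2-NB at 100 µg/ml) were each lost without the first control (-0.34, -0.33 and -0.32) and without the third (-0.27, -0.27 and -0.25). They were also lost without the first or second array of MWCNT at 10 µg/ml (-0.27 and -0.31), without the first or the third of MWCNT at 100 µg/ml (-0.27 and -0.30), and without the first, the second or the third of TiO2-NB at 100 µg/ml (-0.30, -0.34 and -0.33), with adjusted p from 0.068 to 0.186 in all of these.

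Ribosomal probe sets also differed from control at 1 h. The mean of the 3 probe sets for 18S ribosomal RNA was 0.63 higher on the 12 exposed arrays of 1 h than on the 3 controls (exact permutation test, p = 0.0242). That for 28S was 0.16 higher (exact p = 0.0132). By group, 18S was 0.68 and 0.93 higher with MWCNT at 10 and 100 µg/ml, and 0.47 and 0.43 higher with TiO2-NB. With TiO2-NB at 10 µg/ml it spread from 8.12 to 9.47, on both sides of the controls at 8.30 to 8.49 (exact p = 0.4). At 24 h the pooled 18S difference was 0.14 (exact p = 0.127) and that of 28S was -0.071 (exact p = 0.248). With TiO2-NB at 100 µg/ml for 24 h, the 28S difference was -0.17 (exact p = 0.1, the smallest possible for 3 arrays against 3). The 28S mean there lay between 8.48 and 8.61, and between 8.67 and 8.76 in control. The 18S difference in that group was 0.094 (exact p = 0.6). When each array's 18S level was added to the model as a covariate, CXCL8 (x_at) kept a difference of -0.66 with MWCNT at 100 µg/ml that no longer passed (adjusted p = 0.106), and the pooled differences were -0.24 for CCL20 (adjusted p = 0.0986) and -0.31 for CXCL3 (adjusted p = 0.0535). In single groups of 1 h, that model also left CCL20 not called with MWCNT at 10 and 100 µg/ml (adjusted p = 0.184 and 0.187) and CXCL3 not called with MWCNT at 10 and 100 and TiO2-NB at 100 µg/ml (adjusted p = 0.0902, 0.18 and 0.0579). CXCL8 (x_at) kept its calls with MWCNT at 10 µg/ml and with TiO2-NB at 10 and 100 µg/ml (-0.89, -0.95 and -0.63), and so did CXCL8 (s_at) with either particle at 10 µg/ml (-0.86 and -0.69). Of all probe sets, 3.66%, 1.92%, 6.73%, 7.24% and 7.18% were called in that model with MWCNT at 10 and 100, TiO2-NB at 10 and 100 µg/ml and the exposures pooled. Why 18S or 28S differs was not tested.

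**Figure D2:**
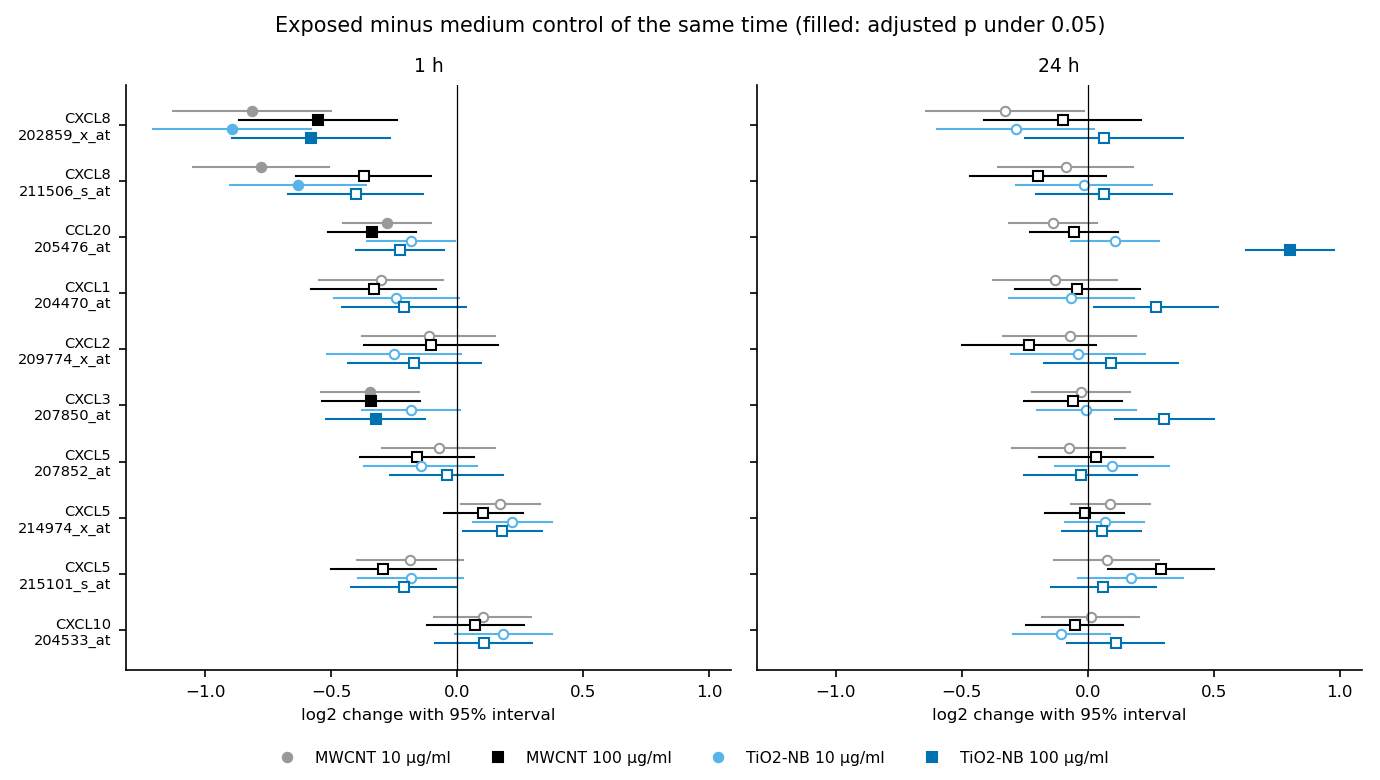
Log2 change against the medium control of the same time (horizontal axis) for each chemokine probe set (vertical axis), with limma's 95% interval as a line and 3 arrays per group. CXCL8 lies left of 0 in all 4 groups at 1 h, and at 24 h CCL20 with TiO2-NB at 100 µg/ml lies at 0.80.

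After 24 h, CCL20 with TiO2-NB at 100 µg/ml was the single chemokine probe set that passed against control. It read 8.63, 8.63 and 8.70, against 7.93, 7.94 and 7.68 in the 24 h controls, and all 3 exposed arrays lay above all controls. CCL20 rose by 0.80 ± 0.085 (95% interval 0.63 to 0.98), a 1.75-fold change with adjusted p = 8.57e-07, and the call held whichever array was left out. It read 8.01, 7.94 and 7.92 with TiO2-NB at 10 µg/ml, and the difference from control of 0.11 (95% interval -0.067 to 0.28) did not pass (adjusted p = 0.827). With MWCNT it read 7.65, 7.86 and 7.63 at 10 µg/ml and 7.81, 7.87 and 7.71 at 100 µg/ml, where the difference was -0.055 (95% interval -0.23 to 0.12). With TiO2-NB at 100 µg/ml, 0.729% of all probe sets were called higher and 3.53% in either direction, so 1 of 10 chemokine probe sets was called there. 

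CXCL3, CXCL1, CXCL2, CXCL10 and both CXCL8 probe sets also had their highest 24 h group mean with TiO2-NB at 100 µg/ml, but did not pass. CXCL3 read 5.81, 5.87 and 5.85 against 5.61, 5.56 and 5.44 in control, a difference of 0.30 ± 0.095 (adjusted p = 0.0887, or 0.0207 with array weights). CXCL1 read 5.64, 5.44 and 5.47 against 5.01, 5.37 and 5.36, a difference of 0.27 ± 0.12 (adjusted p = 0.32). CXCL8 read 5.41, 5.76 and 5.66 and was 0.06 above control on each of its probe sets, and CXCL2 differed by 0.09. In limma's fit, 0 chemokine probe sets were called with MWCNT at 10 or 100 µg/ml, with TiO2-NB at 10 µg/ml or over the exposures pooled at 24 h, where 0.0045%, 0.009%, 0.0585% and 0.324% of all probe sets were called in either direction. At an unadjusted p under 0.05 there were 1, 1, 0 and 1 of 10 in those comparisons, in the same order. Among all 22215 probe sets, 952, 1236, 1686 and 1748 were under that threshold, in that order.

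Dose and particle were compared directly. For TiO2-NB at 24 h, CCL20 was 0.70 ± 0.085 higher at 100 than at 10 µg/ml, or 1.62-fold (adjusted p = 0.000102), with no overlap between the arrays. This was the single dose call among the chemokines, where 0.126% of all probe sets were called higher and 1.83% in either direction. For MWCNT at 24 h and for both particles at 1 h, 0% of all probe sets were called between doses by limma. The unadjusted p was under 0.05 for 1 of 10 chemokine probe sets with MWCNT at each time and for 0 with TiO2-NB at 1 h. That threshold was met by 1518 (MWCNT, 1 h), 1478 (MWCNT, 24 h) and 1427 (TiO2-NB, 1 h) of all 22215 probe sets. The largest 1 h dose difference among the chemokines was that of CXCL8 (s_at) with MWCNT, 0.41 higher at 100 µg/ml (95% interval 0.14 to 0.68, adjusted p = 0.659).

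Compared with TiO2-NB at 100 µg/ml, MWCNT at that dose gave lower CCL20 at 24 h (log2 difference -0.86 ± 0.085, adjusted p = 2.26e-06). CXCL3 was also lower (log2 difference -0.36 ± 0.095, adjusted p = 0.0345), a call lost in 6 of 6 fits that left out 1 array of these groups. These are 2 of 10 probe sets called lower, where 0.725% of all probe sets were called lower and 2.88% in either direction. CXCL1 and CXCL2 differed by -0.31 and -0.32 and did not pass (adjusted p = 0.221 and 0.243). At 10 µg/ml and at 1 h, 0 chemokine probe sets were called between particles in limma's fit. The shares of all probe sets called were 0.0675% (10 µg/ml, 1 h), 0.0315% (10 µg/ml, 24 h) and 0% (100 µg/ml, 1 h). In the same order, the unadjusted p was under 0.05 for 0, 1 and 0 of 10, and for 3041, 1083 and 2055 of all 22215. In the moderated F-test of differences among the 4 exposed groups at 24 h, CCL20 passed (adjusted p = 7.52e-07) and CXCL3 did not (adjusted p = 0.0735), where 3.14% of all probe sets passed. At 1 h no chemokine probe set passed it, and the smallest adjusted p among them was 0.276, where 0.018% of all probe sets passed.

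CCL20 was lower at 24 h than at 1 h in medium and in 3 of the 4 exposures. CCL20 fell by 0.99 and by 0.84 with the lower and higher MWCNT dose and by 0.84 with TiO2-NB at 10 µg/ml. With TiO2-NB at 100 µg/ml the log2 change was -0.10 ± 0.085 (95% interval -0.27 to 0.077) and did not pass (adjusted p = 0.467). Its 10 group means therefore fell into an upper set, from 8.98 ± 0.17 (SD, n = 3) in the 1 h control through 8.79, 8.75 and 8.70 to 8.65 ± 0.038 with TiO2-NB at 100 µg/ml for 24 h and 8.64 with MWCNT at 100 µg/ml for 1 h, and a lower set of 7.96, 7.85, 7.80 and 7.71 that holds the other 24 h groups. Neighbours in the upper set below the control differ by less than the larger of their SDs, and so do neighbours in the lower set, while the step of 8.64 to 7.96 is larger than any SD of the 10 groups.

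CXCL8 (x_at) ordered differently. The highest group was the 1 h control (7.03 ± 0.32, SD), followed by the 1 h groups of MWCNT at 100 µg/ml (6.48), TiO2-NB at 100 µg/ml (6.45), MWCNT at 10 µg/ml (6.21) and TiO2-NB at 10 µg/ml (6.14). All 24 h groups were below these, from 5.61 with TiO2-NB at 100 µg/ml through 5.55 (control), 5.45 and 5.26 to 5.22 with MWCNT at 10 µg/ml. The steps below the 1 h control and between the 1 h and 24 h groups were larger than any SD of the groups beside them, and other neighbours lay within the larger of their SDs. It fell over time by 1.00, 1.03, 0.88 and 0.84 in MWCNT at 10 and 100 and TiO2-NB at 10 and 100 µg/ml, all of which passed. CXCL2 fell by 0.67, 0.84, 0.50 and 0.45 in the same order, the last of these a call lost in 2 of 6 fits that left out 1 array. CXCL3 rose with TiO2-NB at 100 µg/ml by 0.39 (adjusted p = 0.00249), and its differences of 0.083, 0.048 and -0.058 in the other exposures did not pass. CXCL1 fell by 0.37 with either particle at 10 µg/ml, calls lost in 6 of 6 fits for MWCNT and in 3 of 6 for TiO2-NB that left out 1 array. Lower at 24 h than at 1 h were 5, 4, 5 and 3 of the 10 probe sets, where 10.8%, 13.7%, 13.7% and 13.2% of all probe sets were. Higher at 24 h were CXCL5 (s_at) with MWCNT at 100 µg/ml (11.7% of all probe sets) and CXCL3 with TiO2-NB at 100 µg/ml (13.8%). In either direction 21.2%, 25.4%, 27.3% and 27% of all probe sets were called in the 4 exposures.

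**Figure D3:**
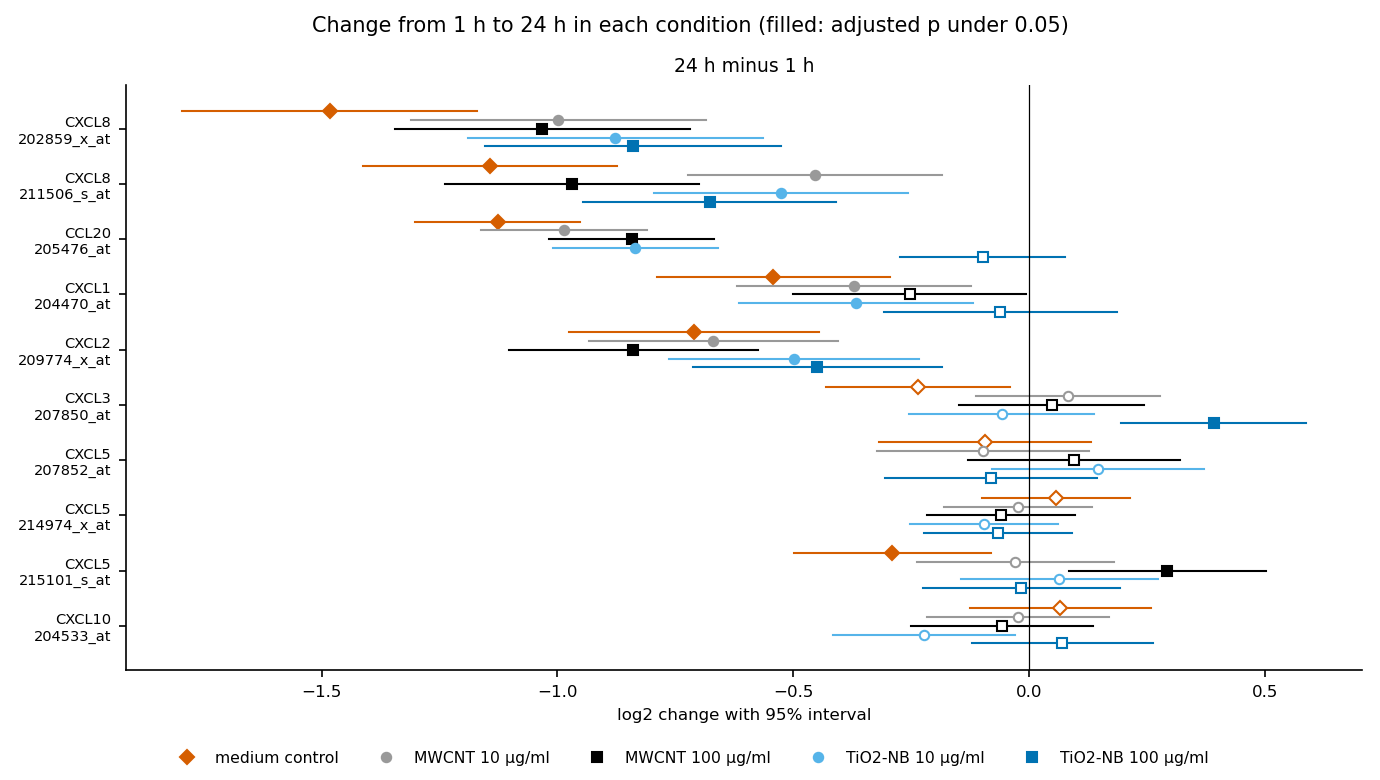
Log2 change from 1 h to 24 h (horizontal axis) of each chemokine probe set (vertical axis) in medium alone and in each exposure, with limma's 95% interval and 3 arrays per group. CCL20 lies at -1.13 in medium and at -0.10 with TiO2-NB at 100 µg/ml, and CXCL3 lies right of 0 with that exposure at 0.39.

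The difference between the exposure effect at 24 h and that at 1 h was tested as an interaction. For TiO2-NB at 100 µg/ml it was 1.03 ± 0.120 for CCL20 (adjusted p = 1.48e-05) and 0.63 ± 0.134 for CXCL3 (adjusted p = 0.00497), and both calls held whichever array was left out. Higher interactions were called for 2 of 10 chemokine probe sets there, and for 3.52% of all probe sets (5.84% in either direction). Over the pooled exposures CCL20 (0.44 ± 0.095, adjusted p = 0.00605), CXCL8 (s_at) (0.49 ± 0.146, adjusted p = 0.0472) and CXCL3 (0.35 ± 0.106, adjusted p = 0.0491) passed, 3 of 10 against 4.13% of all probe sets (6.06% in either direction). The last pair lies close to the threshold and was lost in 21 and 24 of 30 fits that left out 1 array. CXCL8 (x_at) had a like value that did not pass (0.55 ± 0.169, adjusted p = 0.0562), but passed with the dimmest probe sets filtered out (adjusted p = 0.0354). For either particle at 10 µg/ml limma called 0 of 10 interactions, where 1.79% (MWCNT) and 3.83% (TiO2-NB) of all probe sets were called. The unadjusted p was under 0.05 for 3 and 5 of 10 there, and for 2886 and 3915 of all 22215 probe sets.

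CXCL5 and CXCL10 were not called against control in any exposed group. CXCL10 lay between 4.49 and 4.99 on all 30 arrays, and its pooled difference was 0.12 ± 0.074 at 1 h (95% interval -0.036 to 0.268, adjusted p = 0.352). The CXCL5 at and x_at probe sets lay between 2.13 and 2.71 on all 30 arrays. CXCL5 (s_at) read 3.22, 3.42 and 3.16 in the 1 h controls and 3.07, 2.86 and 2.99 with MWCNT at 100 µg/ml for 1 h. At 24 h the order was turned, at 2.94, 2.95 and 3.04 in control and 3.22, 3.24 and 3.34 with MWCNT at 100 µg/ml. Neither difference passed, while their interaction did (0.58, adjusted p = 0.0278), as the single chemokine call in that comparison, where 1.48% of all probe sets were called higher and 2.71% in either direction. The interaction call was lost in 6 of 12 fits that left out 1 array, and with 18S as a covariate (0.42, adjusted p = 0.223). From 1 h to 24 h with MWCNT at 100 µg/ml CXCL5 (s_at) rose by 0.29 (adjusted p = 0.0342), a call lost in 5 of 6 fits that left out 1 array. The other 2 CXCL5 probe sets were called in neither comparison, and its mean level is low enough that a filter on the dimmest 1 in 3 of probe sets removes it.

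**Figure D4:**
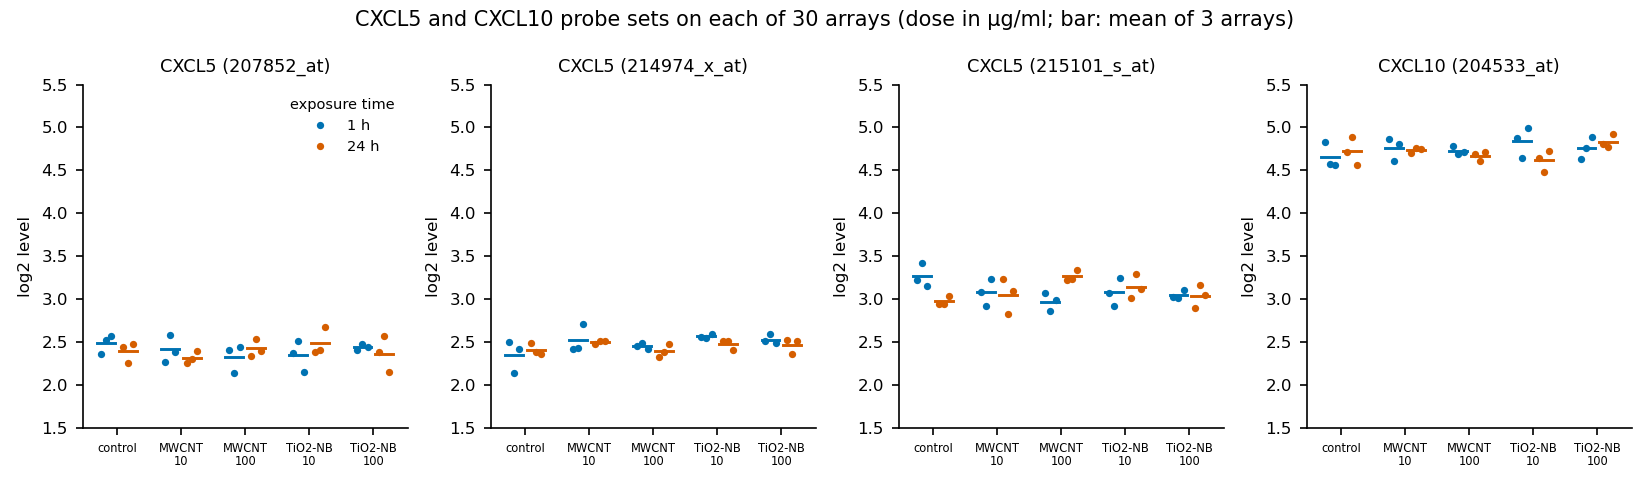
Log2 level (vertical axis) of the CXCL5 and CXCL10 probe sets in each group (horizontal axis), with a point per array and a bar at the mean of 3 arrays. CXCL10 lies between 4.49 and 4.99 on all arrays, and the arrays of most groups overlap those of control.

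The genes that act on or with these chemokines were counted from lists chosen by role, 1 probe set per gene. For the pooled exposures at 1 h, 15.1% of all genes were called. Of 21 genes of NF-κB (subunits, kinases and feedback genes), 6 fell and 2 rose. NFKBIA, the inhibitor that NF-κB itself induces, fell by 0.62 ± 0.042 (adjusted p = 9.16e-10), and TNFAIP3, the feedback inhibitor A20, fell by 0.55 ± 0.038 (adjusted p = 1.06e-09). RELB, a subunit, rose by 0.36, and CHUK, a kinase that phosphorylates the inhibitors, rose by 0.27. Of 15 AP-1 and EGR factors 4 fell and 1 rose. EGR1, an immediate early factor, fell by 0.72 ± 0.092 (adjusted p = 8.91e-06), JUN by 0.46 ± 0.071 and ATF3 by 0.38.

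Among 13 genes for decay and stability of AU-rich messages, 4 rose and 4 fell. ZFP36 (tristetraprolin), which binds AU-rich elements and recruits the decay machinery, rose by 0.25 ± 0.047 (adjusted p = 0.000807), and its relative ZFP36L1 rose by 0.26. TIAL1, an RNA-binding protein, fell by 0.26, and DUSP1, a phosphatase that ends p38 signalling, fell by 0.46. Of 28 cytokines, receptors and adaptors that induce chemokines 2 rose, the receptors TNFRSF1A (0.16) and IL17RC (0.14), and 0 fell. Of 18 chemokine receptors 1 fell, the scavenging receptor ACKR3 (by 0.33), and of 27 other chemokines 1 fell, XCL1 (by 0.26), while 1 of the 27 lay above the median level. In the interferon response list, which bears on CXCL10, 8 of 35 genes fell and 2 rose, with IRF7 down by 0.23 and the receptor chain IFNGR1 up by 0.15.

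At 24 h over the pooled exposures, where 0.192% of all genes were called, limma called 0 genes in each of the 7 lists. An unadjusted p under 0.05 was found for 1 of 18 receptors, 1 of 27 other chemokines, 3 of 28 inducers, 1 of 21 NF-κB genes, 1 of 15 AP-1 and EGR factors, 2 of 13 decay genes and 2 of 35 interferon genes. In that comparison 1748 of all 22215 probe sets had an unadjusted p under 0.05. The lists hold 1 probe set per gene, and the matching share of all genes is not given here. With TiO2-NB at 100 µg/ml, where CCL20 rose and 3.15% of all genes were called, 3 list genes passed. Of 21 NF-κB genes 1 rose and 1 fell, and of 13 decay genes 1 fell. Among the 18 receptors, 27 other chemokines, 28 inducers, 15 AP-1 and EGR factors and 35 interferon genes, 0 passed. Whether the 3 genes bear on CCL20 was not tested. NFKBIA fell by 0.26 (adjusted p = 0.00306), IER3, an early response gene, rose by 0.26 (adjusted p = 0.0383), and RC3H2 (roquin-2), which promotes decay of cytokine messages, fell by 0.88 ± 0.114 (adjusted p = 1.12e-05).

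In medium alone the regulators also differed between 1 h and 24 h, when 21.1% of all genes were called. EGR1 fell by 2.55 ± 0.116 (adjusted p = 1.82e-13), or 5.84-fold, and ATF3 fell by 1.56 ± 0.137. NFKBIA, TNFAIP3, NFKBIE and REL fell by 0.57, 0.46, 0.40 and 0.50, and DUSP1 fell by 0.73. Of the NF-κB genes 6 fell and 1 rose, and of the AP-1 and EGR factors 6 fell and 2 rose, CEBPD among the latter (by 0.40). Of the 28 inducing cytokines, receptors and adaptors 2 rose and 3 fell. IL1B, the gene for interleukin-1 beta, rose by 0.69 ± 0.088 (adjusted p = 3.25e-06) over the same time, and RIPK2, a kinase of innate immune signalling, fell by 0.22.

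Other genes, those of the lists included, were matched to each chemokine by Pearson's r over the 10 group means, among 1474 genes that lay above the median level and varied between groups. CXCL8 (x_at) was most like KLF2, a shear-induced transcription factor (r = 0.989), the histone gene H2BC21 (0.977) and EGR1 (0.973). CCL20 was most like ARL14 (0.979), C8orf33 (0.961) and the small Maf factor MAFF (0.956). CXCL1 shared MAFF (0.971) and ARL14 (0.969) with CCL20, followed by GDF15, a stress-induced hormone (0.928). CXCL2 was most like the splicing factor SRSF5 (0.990), the cyclin CCNL1 (0.986) and TIMM10B (0.984), and CXCL3 was most like TNFAIP3 (0.791). For CXCL5 (s_at) and CXCL10 the closest genes reached 0.702 (GABRA4) and 0.678 (CEACAM7). These genes were picked for the likeness out of all candidates, the points share arrays and the large step from 1 h to 24 h, and the values are descriptions.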

How the data were processed

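Total RNA was labelled with biotin and hybridised to 1 expression array per well. The values are log2 levels of 22277 probe sets, deposited by the authors after summary with RMA, per the submitters' processing notes. For RMA, no version or chip definition file was given in the sources used here. No further scaling was applied, and the tests leave out 62 control probe sets. An array has no read depth, and 3 arrays per group limit the precision.

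In R 4.3.3 with limma 3.58.1, lmFit gave a mean per group over all 30 arrays (20 residual degrees of freedom), and eBayes gave two-sided tests, with Benjamini-Hochberg adjustment across the 22215 probe sets of each of 28 comparisons. An adjusted p under 0.05 is a call. For ribosomal probe sets an exact permutation test (two-sided) was used, with a smallest p of 0.1 for 3 arrays against 3. Genes were named from the platform annotation, and promoters came from the RefSeq table of GRCh38.p14.

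The members, lists and tests were chosen with earlier results of these data known. All member probe sets are named, with the 3 genes most like each member among genes above the median level and, per list and pooled comparison, up to 4 genes with the smallest p, so list genes named for other comparisons were chosen after their values were seen where they fall outside this. A gene with several probe sets is represented by the one with the highest mean.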

Additional observations from a re-analysis of the deposited data

Results flagged for a closer look

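The effect of an exposure differed between 1 h and 24 h, by limma's interaction test, for these chemokine probe sets. For TiO2-NB at 100 µg/ml the effect at 24 h minus that at 1 h was 1.03 for CCL20 (adjusted p = 1.48e-05) and 0.63 for CXCL3 (adjusted p = 0.00497). For MWCNT at 100 µg/ml it was 0.58 for CXCL5 (s_at) (adjusted p = 0.0278), a call lost in 6 of 12 fits that left out 1 array. Over the pooled exposures it was 0.44 for CCL20 (adjusted p = 0.00605), 0.49 for CXCL8 (s_at) (adjusted p = 0.0472) and 0.35 for CXCL3 (adjusted p = 0.0491). The pooled CXCL8 (s_at) and CXCL3 calls were lost in 21 and 24 of 30 such fits.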

How the results depend on the processing

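No alternative reversed the direction of a called change. Counts of chemokine probe sets called moved as follows. Against the 1 h control, fits on the compared groups alone called 0 (MWCNT 10 µg/ml, main count 4), 0 (MWCNT 100 µg/ml, 3), 1 (TiO2-NB 10 µg/ml, 2) and 0 (TiO2-NB 100 µg/ml, 2), while calls over all 22215 probe sets fell from 1435, 1729, 1742 and 1872 to 84, 112, 219 and 269. Array weights called 2 for MWCNT 10 µg/ml and 1 for TiO2-NB 100 µg/ml at 1 h, and 2 for TiO2-NB 100 µg/ml at 24 h (main count 1), where 5.45%, 7.02% and 6.22% of all probe sets were called, against 6.46%, 8.43% and 3.53% without weights. With 18S as a covariate the 1 h counts were 2, 0 and 1 for MWCNT 10, MWCNT 100 and TiO2-NB 100 µg/ml, and 2 for the pooled exposures (main count 4), with 3.66%, 1.92%, 7.24% and 7.18% of all probe sets called. Removing the lowest 1 in 3 of probe sets leaves 5 of the 10 chemokine probe sets, without CXCL8 (s_at), CXCL10 and CXCL5. TiO2-NB 10 µg/ml at 1 h then had 1 (13.5% of 14810 probe sets), and MWCNT 100 µg/ml from 1 h to 24 h had 3 (38% of them, main count 5). The F-test at 24 h had 2 (main count 1), as it did on the compared groups alone and with array weights. For these F-tests the share of all probe sets passing is not given here. MWCNT against TiO2-NB at 100 µg/ml and 24 h had 1 on the compared groups alone (main count 2), where 0.036% of all probe sets were called against 2.88%. For interactions, MWCNT 10 µg/ml had 1 with an intensity trend and with array weights (main count 0), where 2.36% and 2.57% of all probe sets were called, against 1.79%. TiO2-NB 10 µg/ml had 1 with these and after a second quantile normalisation (main count 0), where 4.27%, 3.73% and 3.04% were called, against 3.83%. MWCNT 100 µg/ml had 0 without the low probe sets (6.45% of 14810) and with 18S (1.1% of all), against 2.71% and a main count of 1.

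With the replicate number as a block, the pooled interaction had 1 call (main count 3), with 5.98% of all probe sets called against 6.06%, and no other count moved by over 1.5 times. No pairing by number was detected. Deviations of same-numbered arrays correlated at a mean of 0.0026, against -0.0013 for other pairs, and 12 of 30 arrays correlated best with their own number. Correlations were over 0.1 in 18 of 135 same-numbered pairs and in 25 of 270 others. Whether some same-numbered arrays share a plating or passage was not tested.

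Leaving out 1 array at a time gave 2 to 4 calls at 1 h for MWCNT 10 µg/ml, 0 to 4 for MWCNT 100 µg/ml, 2 to 4 for TiO2-NB 10 µg/ml, 0 to 4 for TiO2-NB 100 µg/ml and 3 to 6 pooled. Interactions ran from 0 to 1 (both MWCNT doses), 0 to 2 (TiO2-NB 10 µg/ml), 2 to 5 (TiO2-NB 100 µg/ml) and 1 to 4 (pooled). From 1 h to 24 h the counts were 5 to 6 in medium, 3 to 4 and 4 to 5 with MWCNT at 10 and 100 µg/ml, and 4 to 6 and 3 to 4 with TiO2-NB. MWCNT against TiO2-NB at 100 µg/ml and 24 h had 1 throughout. The share of all probe sets called in each of these fits is not given here. Whether a moved count is particular to the chemokines was therefore not tested.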
